A study of Mus musculus with 78 samples.

Results

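The AMPA and kainate receptor subunits are 9 genes, Gria1 to Gria4 (the AMPA family) and Grik1 to Grik5 (the kainate family), taken as a fixed list of names from the 55367 genes in the deposited RNA-seq count tables. All 9 were found in both tables and passed the low-count filter in every comparison. The libraries came from 12 C57BL6/J mice, 3 each of male ACSS2 KO, male WT, female ACSS2 KO and female WT, and from 7 dissected brain regions. ACSS2 KO mice carried a constitutive deletion of the acetyl-CoA synthetase gene Acss2, made with Cas9 and a pair of guides in the introns before exon 3 and after exon 7, in founders backcrossed to C57BL6/J. All mice, WT included, were single-housed adults that drank 15% ethanol in limited sessions in the dark, in a week with 2 bottles and then a week with 1 bottle, so no group without ethanol was compared. Each region held 11 or 12 libraries, apart from the prefrontal cortex with 8, which gave 78 libraries in 28 groups of 1 to 3.

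AMPA receptors carry most fast excitatory transmission in the brain, and kainate receptors, built from a related set of subunits, act at both sides of some excitatory synapses. Gria1 to Gria4 encode GluA1 to GluA4, which assemble in mixed receptors. Grik1, Grik2 and Grik3 encode the kainate subunits that can form channels on their own, whereas Grik4 and Grik5 encode high-affinity subunits that need a partner among them. In Gria2, Grik1 and Grik2, RNA editing can turn a glutamine codon of the pore loop into an arginine codon, which for GluA2 makes the receptor nearly impermeable to calcium.

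The coding sequence around this pore codon is shown for the 9 genes because it is the site at which subunit make-up and ion permeation meet. The capitals mark the glutamine codon, which was CAA in Gria4 and CAG in the other 8 genes of the reference. Sequences are from the GENCODE M21 transcripts of GRCm38, 5′ to 3′.
Gria1: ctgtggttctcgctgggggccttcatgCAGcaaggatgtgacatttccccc
Gria2: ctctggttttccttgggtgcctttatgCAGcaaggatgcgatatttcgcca
Gria3: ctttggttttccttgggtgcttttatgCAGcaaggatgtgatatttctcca
Gria4: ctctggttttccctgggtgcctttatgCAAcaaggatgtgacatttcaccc
Grik1: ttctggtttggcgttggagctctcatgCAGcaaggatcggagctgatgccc
Grik2: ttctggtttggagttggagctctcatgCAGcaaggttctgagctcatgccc
Grik3: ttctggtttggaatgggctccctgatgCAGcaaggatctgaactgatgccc
Grik4: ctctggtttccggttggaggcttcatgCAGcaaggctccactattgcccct
Grik5: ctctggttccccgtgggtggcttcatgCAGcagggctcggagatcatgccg
The longest stretch shared exactly by the transcripts of any 2 members was 41 bases, between Gria2 and Gria4. Gene counts give the level of a transcript and not its editing state.

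In GRCm38, Gria1 lies at chr11:57011387-57330244 on the plus strand, Gria2 at chr3:80681450-80802835 on the minus strand, Gria3 at chrX:41400854-41678601 on the plus strand and Gria4 at chr9:4417896-4796234 on the minus strand. Of the kainate genes, Grik1 lies at chr16:87895900-88290265 (minus), Grik2 at chr10:49094833-49788766 (minus), Grik3 at chr4:125490700-125714173 (plus), Grik4 at chr9:42518135-42944493 (minus) and Grik5 at chr7:25009849-25072346 (minus). Exonic length ran from 5168 bases for Grik5 to 15548 bases for Gria2, so levels are compared between genes only per kb of exon. Annotated genes that overlap a member lay on its own strand, shared at most 111 exonic bases with it and held at most 70 counts over all libraries.

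Total counts ran from 4454420 to 14487778 in the 47 libraries of the dorsal hippocampus, the amygdala and both parts of the striatum, and from 629635 to 1228828 in the 31 libraries of the cortex, ventral hippocampus and prefrontal cortex. The floor of 3 counts was thus 0.207 to 0.673 CPM (counts scaled to the column total) in the deep set and 2.44 to 4.76 CPM in the shallow set. All libraries of a region lay in the same set. Where an order of levels or shares crosses the sets, set and region therefore cannot be told apart. Acss2 lay between 0.971 and 13.96 CPM in KO libraries and between 35.9 and 73.8 CPM in WT libraries, so every genotype label fitted this gene. The library labelled female WT of the prefrontal cortex of mouse 23 had 0 CPM of the female-specific Xist and 73.4 CPM of the Y-linked Ddx3y. The other 38 female libraries had 358 to 1077 CPM of Xist, and male libraries had 46.2 to 106 CPM of Ddx3y. In 11 libraries the summed marker genes of the labelled region were under 0.5 times the region's median, or striatal projection neuron markers outside the striatum were over 3 times it. They were 5 of the 24 striatal libraries (3 ventral, 2 dorsal), 2 each of the amygdala and ventral hippocampus, and 1 each of the dorsal hippocampus and prefrontal cortex. Striatal markers summed to 266 CPM in 1 dorsal striatal library against a median of 6029 CPM, hippocampal field markers to 234 CPM in 1 ventral hippocampal library against 577 CPM, and cortical excitatory markers to 344 CPM in 1 amygdala library against 1435 CPM. The hippocampal list had a median of 579 CPM in the ventral striatum as well, so it does not separate the ventral hippocampus from that region. In the ventral hippocampal library of female KO mouse 6, striatal markers summed to 4180 CPM against a median of 197 CPM. Markers of other tissue and of glia were not used in these limits. Choroid plexus markers summed to between 22.6 and 9164 CPM in amygdala libraries. Oligodendrocyte markers summed to between 2117 and 16566 CPM in dorsal hippocampal libraries. The 11 libraries picked by these limits are called set-apart libraries here, and the limits were chosen after the data were seen. For the members, values without them are given where they move a call, a range or an order. In whole tissue, fewer cells of a type and less RNA per cell cannot be told apart.

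Among the AMPA subunits, Gria1 varied most between regions. Its mean was 1197 ± 252 CPM (SD, n = 12) in the dorsal and 895 ± 162 CPM (n = 12) in the ventral hippocampus, 721 ± 152 CPM (n = 11) in the amygdala, 623 ± 92.8 CPM (n = 12) in the ventral striatum, 548 ± 91.98 CPM (n = 8) in the prefrontal cortex, 527 ± 114 CPM (n = 12) in the dorsal striatum and 257 ± 29.7 CPM (n = 11) in the cortex. Every n below is that of the region given here. In this order, only the dorsal striatum and cortex, at 347 to 724 CPM and 217 to 304 CPM, were neighbours whose libraries did not overlap. The highest regional mean was 4.66 times the lowest, and 4.89 times without the set-apart libraries. Without them the dorsal striatum, at 562 CPM, came above the prefrontal cortex, at 553 CPM. The prefrontal cortex, at 409 to 692 CPM, was then the neighbour of the cortex, again without overlap.

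Gria2, whose product sets the calcium permeability of mixed AMPA receptors, was the most even member. Its mean ran from 607 ± 56.5 CPM in the cortex to 823 ± 83.1 CPM in the ventral hippocampus, and no neighbours in the order of 7 regions were free of overlap. The ratio of highest to lowest mean was 1.36, and 1.41 without the set-apart libraries, when the ventral striatum held the highest mean at 858 CPM. Gria3, the X-linked subunit, ran from 199.9 CPM in the dorsal hippocampus to 302 CPM in the prefrontal cortex, again with overlap between all neighbours. Without the set-apart libraries its lowest mean was that of the ventral hippocampus, 205 CPM, against 206 CPM in the dorsal part. Gria4, a subunit known from fast-spiking interneurons and other fast synapses, had its highest mean of 115 ± 10.1 CPM in the cortex and its lowest of 54.8 ± 16.6 CPM in the dorsal hippocampus, the opposite order to Gria1 at both ends.

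Of the kainate subunits able to form channels on their own, Grik2 had its highest mean in the ventral striatum, 110.1 ± 21.1 CPM, and its lowest in the cortex, 36.1 ± 7.10 CPM. Grik3 was highest in the prefrontal cortex at 168 ± 53.4 CPM and lowest in the cortex at 50.5 ± 22.5 CPM. Grik1 was the scarcest member in every region, also per kb of exon, at means between 7.81 ± 3.71 CPM in the dorsal striatum and 18.5 ± 7.88 CPM in the amygdala. In the cortex the lowest library held 2 Grik1 counts, under the floor of 3, so the precision there is poor. Of the partner subunits, Grik4 had its highest means in the ventral hippocampus, 48.6 ± 16.8 CPM, and dorsal hippocampus, 47.03 ± 15.6 CPM, and its lowest in the cortex, 17.5 ± 4.27 CPM. Grik5 was the most abundant kainate member in every region, also per kb, and ran from 175 ± 42.1 CPM in the ventral striatum to 283 ± 20.05 CPM in the prefrontal cortex. None of the kainate members had neighbouring regions free of overlap. Once the set-apart libraries were left out, the lowest mean of Grik4 lay in the dorsal striatum, 14.9 CPM, and so did that of Grik5, 179 CPM.

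**Figure D1:**
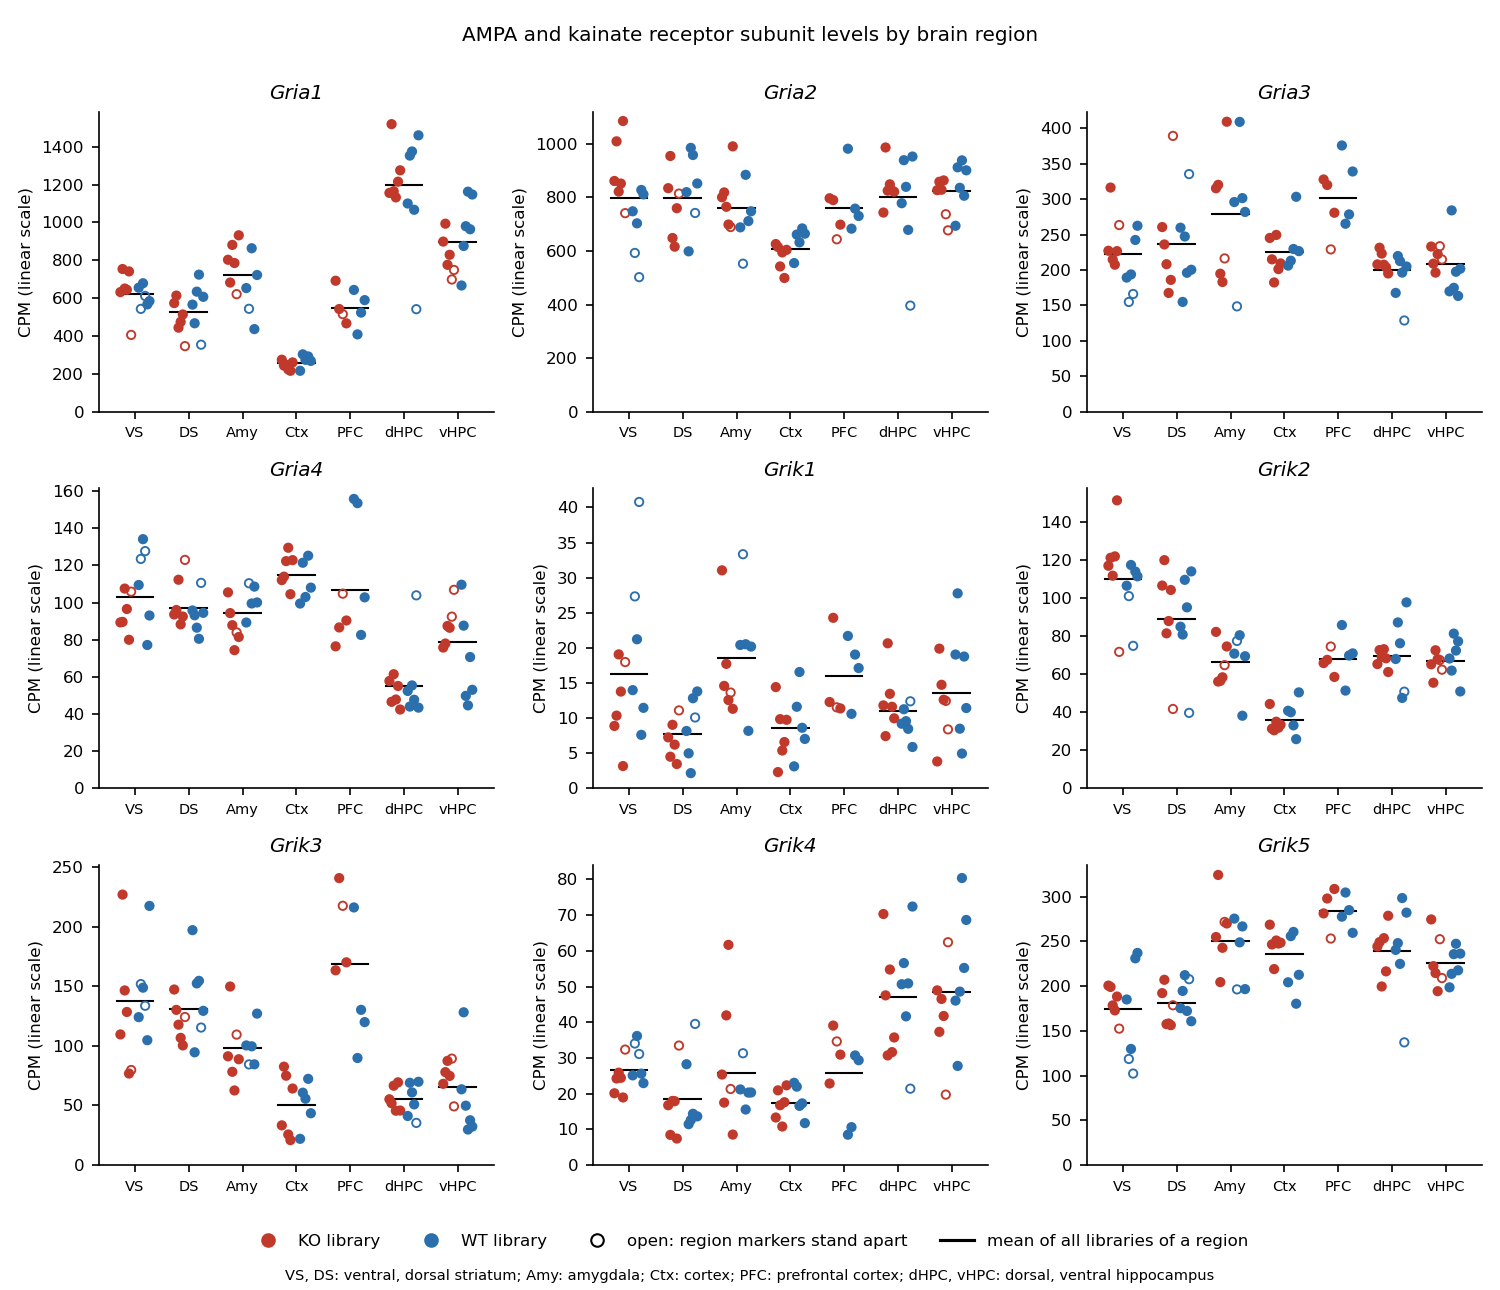
Each point is 1 library, the y axis is CPM on a linear scale from 0, and the bar is the mean of all libraries of a region, with KO in red, WT in blue and set-apart libraries as open circles. Gria1 spans the widest range of means, from 257 CPM in the cortex to 1197 CPM in the dorsal hippocampus, and KO and WT points overlap for every member in every region.

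Per kb of exon, Gria1 was the most abundant of the 9 members in 6 regions, at up to 198 CPM per kb in the dorsal hippocampus, and in the cortex its 42.5 CPM per kb was below the 45.6 CPM per kb of Grik5. Gria2 held 39.05 to 52.9 CPM per kb and Grik5 33.8 to 54.8 CPM per kb, while Grik1, Grik2 and Grik4 each stayed at or under 8.31 CPM per kb. Within the AMPA family, Gria1 made up 34.6% ± 1.9 of counts per exonic kb in the cortex and 70.6% ± 3.0 in the dorsal hippocampus, and its libraries in these regions, at 30.6% to 37.6% and 62.0% to 73.1%, did not overlap. The Gria2 share went the other way, from 31.8% ± 1.0 in the cortex to 18.5% ± 0.87 in the dorsal hippocampus, although its mean level was 607 and 803 CPM. Shares of a family have a fixed sum, so a larger share of Gria1 lowers those of the others. Share tests within a family are therefore not independent of each other. Gria4 was 14.9% ± 1.4 of the family in the cortex and 3.50% ± 2.5 in the dorsal hippocampus, and Gria3 was 18.6% ± 1.7 and 7.39% ± 0.79. The order of Gria1 and Gria2 rests on the length used, because most of the exonic length of Gria2 is untranslated (2649 of 15548 bases code). Per kb of coding sequence the Gria2 share, 36.1% to 50.9%, was above the Gria1 share, 20.9% to 52.1%, in 5 of the 7 regions, and Gria1 was ahead only in the dorsal and ventral hippocampus.

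Within the kainate family, Grik5 made up the largest share per exonic kb in every region. Its share ran from 52.2% ± 8.3 in the ventral striatum to 78.4% ± 4.4 in the cortex. Per exonic kb, Grik3 had the next largest share in 5 regions and Grik4 in both parts of the hippocampus, where Grik2 came next per coding kb. The share of Grik3 was 23.6% ± 5.9 in the ventral and 23.9% ± 3.6 in the dorsal striatum, against 9.25% ± 2.0 in the dorsal hippocampus. Grik2 was 13.01% ± 2.4 of the family in the ventral striatum and 4.73% ± 1.1 in the cortex. Grik4 was 12.3% ± 4.2 in the ventral and 11.5% ± 2.6 in the dorsal hippocampus. In the other 5 regions its mean share was between 5.03% and 7.22%. The size of these shares also rests on the length used, since 2724 of 13246 exonic bases code in Grik2 and 2937 of 5168 in Grik5. Over all regions, the mean Grik5 share was 64.8% in female and 64.9% in male libraries per exonic kb. Per coding kb it was lower, at 50.1% and 50.5%. The mean Grik2 share was higher per coding kb than per exonic kb, at 17.7% in female and 17.1% in male libraries.

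**Figure D2:**
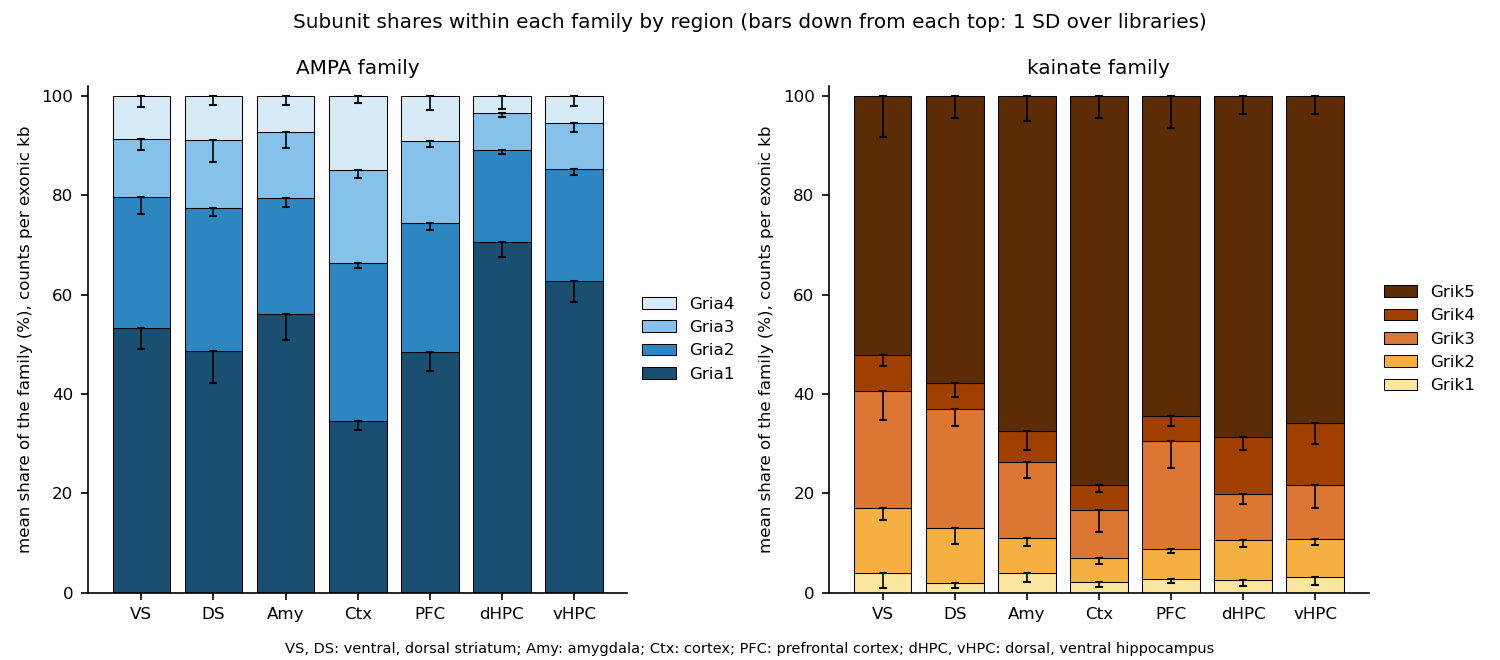
Stacked bars give the mean share of each subunit within its family (y axis, percent of counts per exonic kb) in each of the 7 regions, and the line down from each boundary is 1 SD over libraries. Gria1 takes 34.6% of the AMPA family in the cortex and 70.6% in the dorsal hippocampus, and Grik5 takes the largest kainate share in every region.

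Differences between regions were then tested in 1 edgeR quasi-likelihood fit of all 78 libraries with terms for region, sex and genotype, and p-values were adjusted over the 15663 genes tested. Values are log2 fold changes ± SE. For edgeR fits this SE was worked back from the test, as the absolute log2 fold change over the square root of the F statistic. A member was called at an adjusted p under 0.05.

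The ventral hippocampus was compared with the cortex. Gria1 lay between 667 and 1162 CPM, median 887, in the ventral hippocampus and between 217 and 304 CPM, median 261, in the cortex, with no overlap, and the difference was 1.78 ± 0.13 (adjusted p = 1.07e-18). Grik4, known from hippocampal mossy fibre synapses, had medians of 47.6 and 17.3 CPM and was higher by 1.44 ± 0.30 (adjusted p = 0.000132). Grik2 was higher by 0.86 ± 0.16 (adjusted p = 3.25e-05) with ranges of 51.0 to 81.4 and 25.9 to 50.5 CPM that did not overlap, and Gria2 by 0.42 ± 0.11 (adjusted p = 0.00222). Gria4 was lower, by −0.59 ± 0.12 (adjusted p = 0.000162). In all, 5 of 9 members were called, 4 higher and 1 lower, where 22.6% of all genes were called, 11.8% higher and 10.8% lower. In thinned counts Gria4 and Grik4 were no longer called (adjusted p = 0.316 and 0.0629). The Grik4 ranges, 19.7 to 80.4 and 10.8 to 23.03 CPM, overlapped through 1 set-apart library, that of female KO mouse 6, and without these libraries its difference was 1.47. Of the 9 shares, 7 differed within the 11 mice that had both regions (two-sided exact sign-flip permutation, Benjamini-Hochberg over 54 tests, adjusted p of at most 0.00791): Gria1 and Grik4 took a larger share by 27.8 and 7.07 percentage points, and Grik5 a smaller one by −12.4 points.

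Dorsal and ventral hippocampus differed in Gria1 and Gria4, and in opposite directions. Gria1 lay between 542 and 1519 CPM, median 1190, in the dorsal part and was higher there by 0.47 ± 0.12 (adjusted p = 0.00192). Gria4 lay between 42.4 and 103.9 CPM, median 50.1, in the dorsal part and between 44.7 and 109.6 CPM, median 82.2, in the ventral part, and was lower dorsally by −0.47 ± 0.12 (adjusted p = 0.00194). The ranges overlapped for both genes. The 2 calls compare with 16.8% of all genes, 9.17% higher and 7.64% lower. The values were 0.50 and −0.48 without the set-apart libraries. The share of Gria1 was 7.87 points larger dorsally and that of Gria2 smaller by −4.13 points, in 11 and 12 of 12 mice (exact sign-flip adjusted p = 0.00555 and 0.00377). The share of Gria4 was also called once the set-apart libraries were left out (−2.31 points, exact sign-flip adjusted p = 0.0333). Depth and region cannot be told apart here, since all dorsal libraries were in the deep set and all ventral ones in the shallow set. After all libraries were thinned to 629635 counts in 1 random draw, Gria1 differed by 0.40 (adjusted p = 0.193) and Gria4 by −0.86 (adjusted p = 0.119), and neither was called.

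The most members were called between the dorsal hippocampus and the dorsal striatum, both of the deep set. This was also the pair with the largest share of all genes called, 50.9%. Gria1 was higher in the hippocampus by 1.20 ± 0.12 (adjusted p = 2.18e-14) and Gria4 lower by −0.83 ± 0.11 (adjusted p = 3.98e-10). The Gria1 ranges, 542 to 1519 and 347 to 724 CPM, met only through the set-apart hippocampal library of female WT mouse 23, since the other 11 hippocampal libraries were at 1067 CPM or above. Grik4 was higher by 1.37 ± 0.22 (adjusted p = 1.41e-07) and Grik5 by 0.41 ± 0.10 (adjusted p = 0.000577), so both partner subunits were higher in the hippocampus. Grik3 was lower by −1.23 ± 0.18 (adjusted p = 1.85e-08), with 35.4 to 69.9 CPM against 94.6 to 197 CPM and no overlap, and Grik2 was lower by −0.33 ± 0.12 (adjusted p = 0.0191). In counts thinned to equal depth the Grik2 difference changed sign (0.0436, adjusted p = 0.952), and only Gria1, Gria4 and Grik3 were called. The fit of all reads called 6 of 9 members, 3 in each direction, beside 50.9% of all genes, 23.7% higher and 27.2% lower. Without the set-apart libraries Grik4 differed by 1.76, and its ranges, 30.7 to 72.4 and 7.42 to 28.2 CPM, no longer overlapped. Grik1 was then also called (0.60, adjusted p = 0.0310, against 0.52 and 0.0671 with them). Of the shares, 8 of 9 differed (exact sign-flip, 12 mice, adjusted p of at most 0.0313), and Grik3 fell by 14.7 points while Grik5 rose by 10.9.

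The amygdala and ventral striatum, also both of the deep set, differed in 3 kainate subunits and 1 AMPA subunit. Grik2 had a median of 69.5 CPM in the amygdala and 113 CPM in the ventral striatum, and was lower in the amygdala by −0.74 ± 0.13 (adjusted p = 2.12e-06). Grik3 was lower by −0.50 ± 0.18 (adjusted p = 0.0208), whereas Grik5 was higher by 0.51 ± 0.11 (adjusted p = 5.19e-05). Of the AMPA members, Gria3 was called, higher by 0.32 ± 0.13 (adjusted p = 0.0395), and the other 3 had adjusted p-values of 0.162 or above. The 4 members called, 2 in each direction, stand beside 42.7% of all genes, 21.9% higher and 20.9% lower, a share close to that of the members. None of the 4 was called in thinned counts, in which the smallest of their adjusted p-values was 0.0661. Grik2 differed by −0.88 without the set-apart libraries, and its ranges, 38.2 to 82.3 and 106.6 to 151 CPM, were free of overlap. The shares of Grik2 and Grik3 were smaller in the amygdala by −5.89 and −7.80 points and that of Grik5 larger by 14.3 points, in 11, 10 and 11 of 11 mice (exact sign-flip adjusted p of at most 0.00555), and Gria2 had a smaller share by −3.47 points.

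The prefrontal cortex was set against the remaining cortex. Grik3 lay between 89.8 and 241 CPM, median 167, in the prefrontal cortex and between 20.9 and 82.5 CPM, median 55.6, in the cortex, a difference of 1.68 ± 0.23 (adjusted p = 3.05e-08) with no overlap. Gria1 was higher by 1.04 ± 0.13 (adjusted p = 5.4e-09) and Grik2 by 0.85 ± 0.18 (adjusted p = 9.91e-05), likewise without overlap. Gria3 was higher by 0.38 ± 0.15 (adjusted p = 0.0494). Striatal projection neuron markers had a summed median of 554 CPM in the prefrontal cortex (234 to 2134) and 367 CPM in the cortex (297 to 739). The prefrontal sums averaged 1254 CPM in KO and 329 CPM in WT libraries, against 425 and 423 CPM in the cortex. The part of these markers in the differences of the members was not tested. In WT libraries alone Gria1 and Grik3 stayed called, and Grik2 and Gria3 did not. Without the set-apart libraries, among them the prefrontal library with the highest striatal marker sum, Grik3 differed by 1.62 and Gria1 by 1.05. The 4 calls, all higher, stand beside 30% of all genes, 16.2% higher and 13.8% lower. Gria3 was not called in thinned counts (adjusted p = 0.651). Gria2, at 0.27 with adjusted p = 0.0728, was called with mouse as a block (0.33, adjusted p = 0.0325) and without the set-apart libraries (0.30, adjusted p = 0.0122). In the 7 mice with both regions, the shares of Gria1, Grik2 and Grik3 were larger and that of Gria2 smaller in all 7, by 13.4, 1.18, 14.4 and −5.15 points (exact sign-flip p = 0.0156 each, the smallest possible, adjusted p = 0.0313). Leaving out any 1 of these 7 mice removed all 4 share calls, since 6 pairs give a p of 0.0313 at best. The same held without the set-apart libraries, where the 4 values were 12.2, 1.06, 12.999 and −4.88 points in 6 mice (adjusted p = 0.0582, exact sign-flip).

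Ventral and dorsal striatum differed in 1 member. Grik1 lay between 3.18 and 40.8 CPM, median 13.9, in the ventral and between 2.18 and 13.8 CPM, median 7.72, in the dorsal part, and was higher ventrally by 0.99 ± 0.24 (adjusted p = 0.00268). Its highest ventral libraries, at 40.8 and 27.3 CPM, were the set-apart libraries of male WT mouse 13 and female WT mouse 11, in which striatal projection neuron markers summed to 477 and 1752 CPM against a median of 4806 CPM. Without the set-apart libraries Grik1 differed by 0.71 (adjusted p = 0.0361), and Grik4, at 0.49 (adjusted p = 0.133) with them, was also called (0.71, adjusted p = 0.0152). In thinned counts the Grik1 difference was 1.32 (adjusted p = 0.498). The background was 12.6% of all genes, 6.29% higher and 6.30% lower. Gria1 had a larger ventral share by 4.53 points and Gria2 a smaller one by −2.36 (exact sign-flip, 12 mice, adjusted p = 0.00527 and 0.0330), and the Grik1 share was larger by 2.11 points (adjusted p = 0.0364). Only 1 of the shares was called without the set-apart libraries, that of Grik4.

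**Figure D3:**
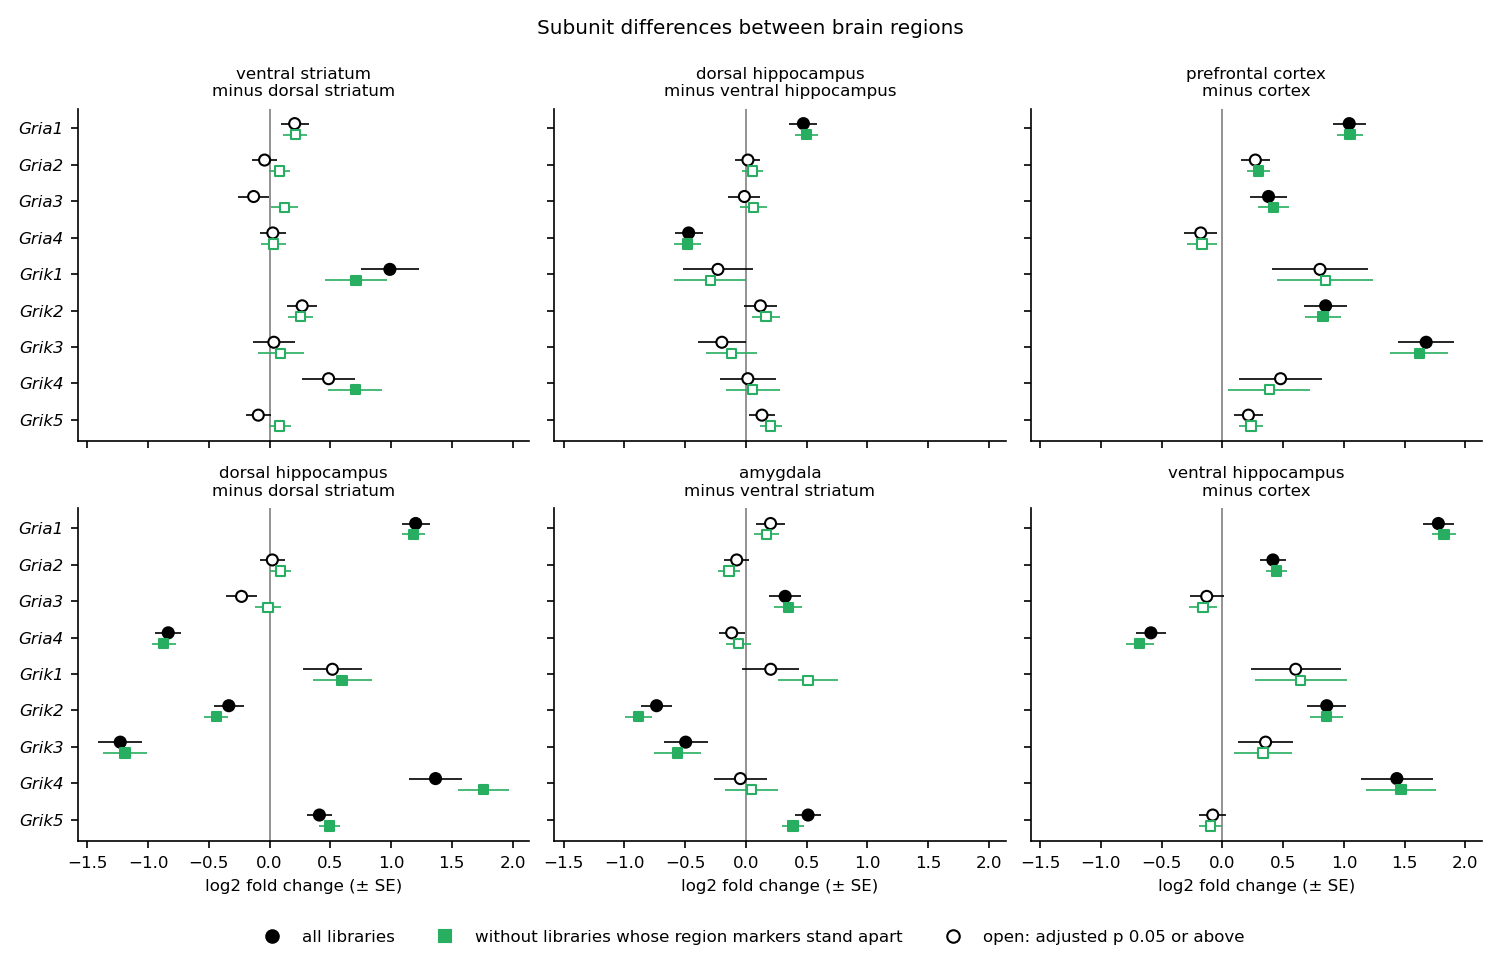
Each panel is 1 pair of regions, the x axis is the log2 fold change of the first against the second ± SE, and the rows are the 9 members, with all libraries in black, without the set-apart libraries in green, and open symbols for an adjusted p of 0.05 or above. Gria1 is higher in the hippocampus and lower in the cortex, and Grik3 stands out in the prefrontal cortex at 1.68.

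Gria1 and Gria4 moved in opposite directions in the 3 comparisons that called both. Over the 78 libraries the Pearson correlation of their log2(CPM + 1) was −0.76, and −0.77 over the 67 libraries that were not set apart. The libraries share mice and regions, so this is a description of these libraries. Within regions it ranged from −0.90 in the ventral hippocampus (n = 12) to 0.31 in the cortex (n = 11). In the dorsal hippocampus it was −0.87, and −0.42 without the set-apart library of mouse 23, which held 542 CPM of Gria1 and 103.9 CPM of Gria4. The next 4 pairs by size, of 36, were Gria1 and Gria2 at 0.63, Gria4 and Grik4 at −0.59, Gria1 and Grik4 at 0.55 and Gria2 and Grik2 at 0.54.

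**Figure D4:**
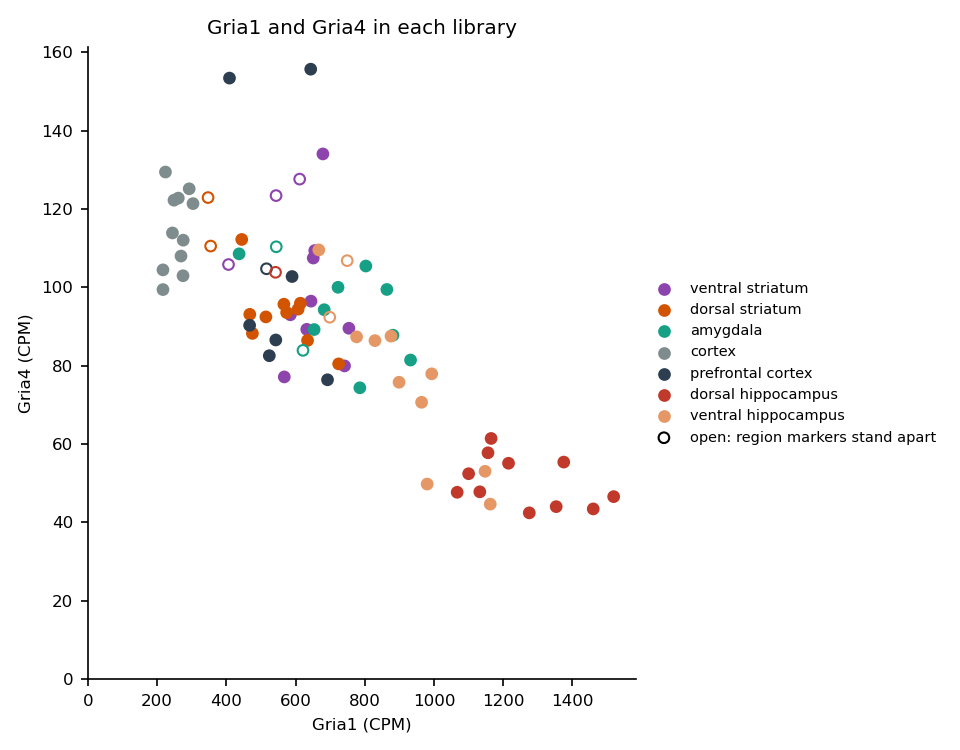
Each point is 1 library, with Gria1 CPM on the x axis and Gria4 CPM on the y axis, both linear, coloured by region, and set-apart libraries as open circles. Dorsal hippocampal libraries lie at high Gria1 and low Gria4 apart from 1 open circle at 542 and 103.9 CPM, and cortical libraries lie at low Gria1 and high Gria4.

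Genes whose level followed a member closely, by Pearson r of log2(CPM + 1) over the same 78 libraries among 11758 genes, were Scn3b and Fkbp5 for Gria1 (0.94 and 0.89), Plppr4 and Celf2 for Gria2 (0.83 each), Sirpa and Tecpr2 for Gria3 (0.87 and 0.80), and Dpp10 and Cobl for Gria4 (0.83 and 0.80). For the kainate members they were Tox2 and Wdr6 for Grik1 (0.79 and 0.76), Scn3a and Kcna4 for Grik2 (0.89 and 0.87), Slc35f1 and Cdh13 for Grik3 (0.81 each), Cabp7 and Serpina3n for Grik4 (0.81 and 0.79), and Speg for Grik5 (0.82). Scn3b and Scn3a encode sodium channel subunits and Kcna4 a potassium channel.

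Proteins that accompany the subunits were read from lists of 15 AMPA auxiliary subunits, 2 kainate auxiliary subunits, 4 assembly factors, 10 trafficking and anchoring proteins, 7 extracellular clustering proteins and 3 RNA editing enzymes, all of which were tested between regions. For these genes the fits were run with all libraries and all reads only. They were not run without the set-apart libraries, with thinned counts or with a mouse block. Calls between dorsal and ventral hippocampus also cross the deep and shallow sets. AMPA auxiliary subunits, which set receptor gating and surface delivery, were called in both directions in most comparisons. Between dorsal hippocampus and dorsal striatum 8 of 15 were higher and 4 lower (23.7% and 27.2% of all genes), with a median of 0.44 against −0.04 over all genes, led by Shisa6 at 3.49 ± 0.28 and Cacng4 at −1.79 ± 0.21. Shisa6 lay at 52.5 to 216 CPM in the dorsal hippocampus and at 2.90 to 49.6 CPM in the dorsal striatum, with no overlap. It also led between ventral hippocampus and cortex (3.51 ± 0.40; 6 higher and 5 lower beside 11.8% and 10.8% of all genes, with Gsg1l at −1.20 ± 0.24) and, with Cnih3 at 2.01 ± 0.24, between amygdala and ventral striatum (1.79 ± 0.28; 6 higher and 4 lower beside 21.9% and 20.9% of all genes). Between dorsal and ventral hippocampus 5 were higher and none lower (9.17% and 7.64% of all genes), led by Syndig1 at 0.64 ± 0.18 and Prrt1 at 0.52 ± 0.11. Between prefrontal cortex and cortex 7 were higher and 3 lower (16.2% and 13.8% of all genes), led by Shisa8 at 2.74 ± 0.56 and Cacng5 at 1.78 ± 0.44. Shisa8 is a low gene there, with a prefrontal median of 5.08 CPM and 1 library at 72.7 CPM. No auxiliary subunit was called between ventral and dorsal striatum.

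The kainate auxiliary subunits Neto1 and Neto2, which slow kainate receptor responses, were both lower in the dorsal hippocampus than in the dorsal striatum, by −0.48 ± 0.17 and −1.56 ± 0.15. In this comparison 27.2% of all genes were lower. Neto2 was also lower in the amygdala than in the ventral striatum (−0.49 ± 0.15), and Neto1 was higher in the ventral hippocampus than in the cortex (0.90 ± 0.20). In the remaining 3 comparisons neither was called.

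Of the extracellular clustering proteins, secreted factors and adhesion proteins that gather receptors at synapses, 6 of 7 were higher in the amygdala than in the ventral striatum, where 21.9% of all genes were higher, with C1ql3 at 3.51 ± 0.41 and Nptxr at 2.16 ± 0.31. C1ql2, a secreted partner of kainate receptors at mossy fibre synapses, lay between 36.1 and 370 CPM in the dorsal hippocampus, 8.31 and 209 CPM in the ventral hippocampus, and 0.156 and 13.2 CPM in the dorsal striatum. In the cortex its median was 0 CPM and its highest library 2.79 CPM. C1ql2 was higher in the dorsal than in the ventral hippocampus by 1.18 ± 0.32, the only call of its list there, beside 9.17% of all genes higher. C1ql3 was higher in the dorsal hippocampus than in the dorsal striatum (2.54 ± 0.39). There 5 of 7 were higher and 1 lower, beside 23.7% and 27.2% of all genes. C1ql3 was the only call of the list between prefrontal cortex and cortex (1.17 ± 0.46), where 16.2% of all genes were higher. Between ventral hippocampus and cortex 2 of 7 were higher, Lrrtm1 (1.19 ± 0.15) and C1ql2, and 1 was lower, beside 11.8% and 10.8% of all genes.

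Anchoring proteins went in both directions: between dorsal hippocampus and dorsal striatum 3 of 10 were higher and 4 lower, near the 23.7% and 27.2% of all genes, with Akap5 at −2.13 ± 0.22 and Dlg1 at −1.24 ± 0.09. Akap5 was also lower in the amygdala than in the ventral striatum, by −1.38 ± 0.22, in a comparison with 2 higher, Pick1 among them (0.62 ± 0.12), and 4 lower. Of all genes, 21.9% were higher there and 20.9% lower. Grip1 was higher in the prefrontal cortex (0.79 ± 0.19, with Grip2 at 0.83 ± 0.25; 2 higher, 1 lower) and in the ventral hippocampus (0.93 ± 0.17, with Dlg1 at −0.65 ± 0.10; 2 higher, 1 lower) than in the cortex. Of all genes, 16.2% were higher and 13.8% lower in the prefrontal cortex, and 11.8% and 10.8% in the ventral hippocampus. Between dorsal and ventral hippocampus 1 was higher, Dlg3 at 0.45 ± 0.11, and 2 lower, with Dlg1 at −0.36 ± 0.09, beside 9.17% and 7.64% of all genes.

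All 4 assembly factors were higher in the dorsal hippocampus than in the dorsal striatum, where 23.7% of all genes were higher. Abhd6 was at 0.60 ± 0.09 and Porcn at 0.56 ± 0.11. Cpt1c was higher in the amygdala than in the ventral striatum (0.33 ± 0.08, with Porcn at 0.27 ± 0.11). There 3 of 4 assembly factors and 21.9% of all genes were higher. Cpt1c was also higher than in the cortex in the prefrontal cortex (0.37 ± 0.10, with Abhd6 lower at −0.46 ± 0.12) and in the ventral hippocampus (0.37 ± 0.09).

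Of the editing enzymes, Adarb1, which edits the pore codon of Gria2, was higher in the dorsal hippocampus than in the ventral hippocampus (0.41 ± 0.13) and the dorsal striatum (0.40 ± 0.12). It was lower in the prefrontal cortex and in the ventral hippocampus than in the cortex (−0.39 ± 0.15 and −0.41 ± 0.13), and lower in the amygdala than in the ventral striatum (−0.30 ± 0.12). Adarb2, a brain member of the family without known editing activity, was higher in the dorsal hippocampus than in the dorsal striatum (1.83 ± 0.19), in the ventral than in the dorsal striatum (1.02 ± 0.19) and in the ventral hippocampus than in the cortex (0.92 ± 0.27). Adar, the widely expressed editing enzyme, was higher in the ventral than in the dorsal striatum (0.31 ± 0.07) and in the prefrontal cortex than in the cortex (0.33 ± 0.08), and lower in the dorsal hippocampus than in the dorsal striatum (−0.16 ± 0.07).

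The study asked what loss of ACSS2 changes in the brains of mice that drink, and for the 9 subunits no KO and WT difference was called in any region. The edgeR quasi-likelihood test, with sex as a term, called 0 of 9 members in each of the 7 regions, where the share of all genes called was 0.0925% in the prefrontal cortex, 0.00947% in the cortex, 0.00657% in the amygdala, 0.00708% and 0.00689% in the ventral and dorsal striatum, and 0.00929% and 0.00690% in the ventral and dorsal hippocampus. DESeq2 also called 0 of 9 in each region. Unadjusted p-values under 0.05 were found for 1 member in the ventral striatum, 2 in the prefrontal cortex and none in the other 5 regions. For 0 of 63 pairs of member and region were the KO and WT ranges of CPM apart.

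In the ventral striatum, Gria2 had a KO range of 741 to 1085 CPM and a WT range of 502 to 828 CPM. The difference was 0.37 ± 0.15 (unadjusted p = 0.0328, adjusted p = 0.651), and 0.25 ± 0.13 without the set-apart libraries, 2 of which were the WT libraries lowest in Gria2. Grik1 ran from 3.18 to 19.1 CPM in KO and from 7.62 to 40.8 CPM in WT, at −0.70 ± 0.41 (adjusted p = 0.651). Without the set-apart libraries it was −0.25 ± 0.42.

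In the prefrontal cortex, Grik3 was at 241, 218 and 170.1 CPM in female KO libraries, 163 CPM in the male KO library, 89.8 and 120 CPM in the libraries labelled female WT, and 130 and 216 CPM in male WT libraries. The groups overlapped through the male WT library at 216 CPM, and the difference was 0.61 ± 0.22 (unadjusted p = 0.0156, adjusted p = 0.4005). Without the low-count filter the same difference passed (0.61, adjusted p = 0.0172), as it did in libraries labelled female alone (0.99 ± 0.20, adjusted p = 0.0422), where 1 of the 2 WT libraries was that of mouse 23 without Xist. It did not pass without the library of mouse 23 (0.57, adjusted p = 0.5257), without the set-apart library (0.53, adjusted p = 0.630) or with DESeq2 (0.61, adjusted p = 0.452). All 9 of 9 striatal projection neuron markers were higher in KO than in WT in this region, with summed CPM of 712 to 2134 in KO and 234 to 396 in WT libraries, and so were all 10 of 10 oligodendrocyte markers, with 2656 to 11862 CPM in KO and 1809 to 3442 CPM in WT libraries. Of the astrocyte markers 0 of 6 were higher in KO. All 9 striatal markers were also higher in KO in both parts of the striatum, the amygdala and the ventral hippocampus. All 10 oligodendrocyte markers were higher in the dorsal striatum and ventral hippocampus too, but 0 in the ventral striatum, amygdala and dorsal hippocampus. The astrocyte count was also 0 in the ventral striatum, amygdala and ventral hippocampus. Only in the prefrontal cortex were the KO and WT sums of striatal markers free of overlap. The part of these markers in the Grik3 values was not tested. Gria4 went the other way, from 76.4 to 104.8 CPM in KO and from 82.6 to 156 CPM in WT libraries, at −0.52 ± 0.20 (adjusted p = 0.414).

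Over all regions, limma with voom weights and a correlation within mouse called 0 of 9 members for genotype, where 0.0383% of all genes were called, and 0 had an unadjusted p under 0.05. The count stayed at 0 with DESeq2 size factors, and in an edgeR fit of counts summed per mouse over 4 regions. Grik1 had the widest 95% interval of the KO and WT difference, from −0.53 to 0.09, and the intervals of the other 8 members lay between −0.34 and 0.23. Genotype varies between the 12 mice, but with a within-mouse correlation of 0.0178 the fit treats libraries of a mouse as nearly independent. These intervals thus rest on 78 libraries more than on mice. None of the 9 was called for sex, where 0.160% of all genes were called. Gria3, the X-linked member, was at 0.16 ± 0.08 in males against females (unadjusted p = 0.0411, adjusted p = 0.408). A difference of the KO effect between the sexes was called for 0 of 9 members in the 6 regions tested, in which 0% of all genes were called (edgeR interaction term; DESeq2 also called 0 members). With at most 3 mice a group the estimates were wide, and in the amygdala they ran from −1.37 for Grik4 to 0.92 for Gria3. The only unadjusted p under 0.05 was that of Gria3 in the ventral striatum (0.65 ± 0.30, adjusted p = 0.943). The prefrontal cortex was left out there because it had 1 male KO library.

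**Figure D5:**
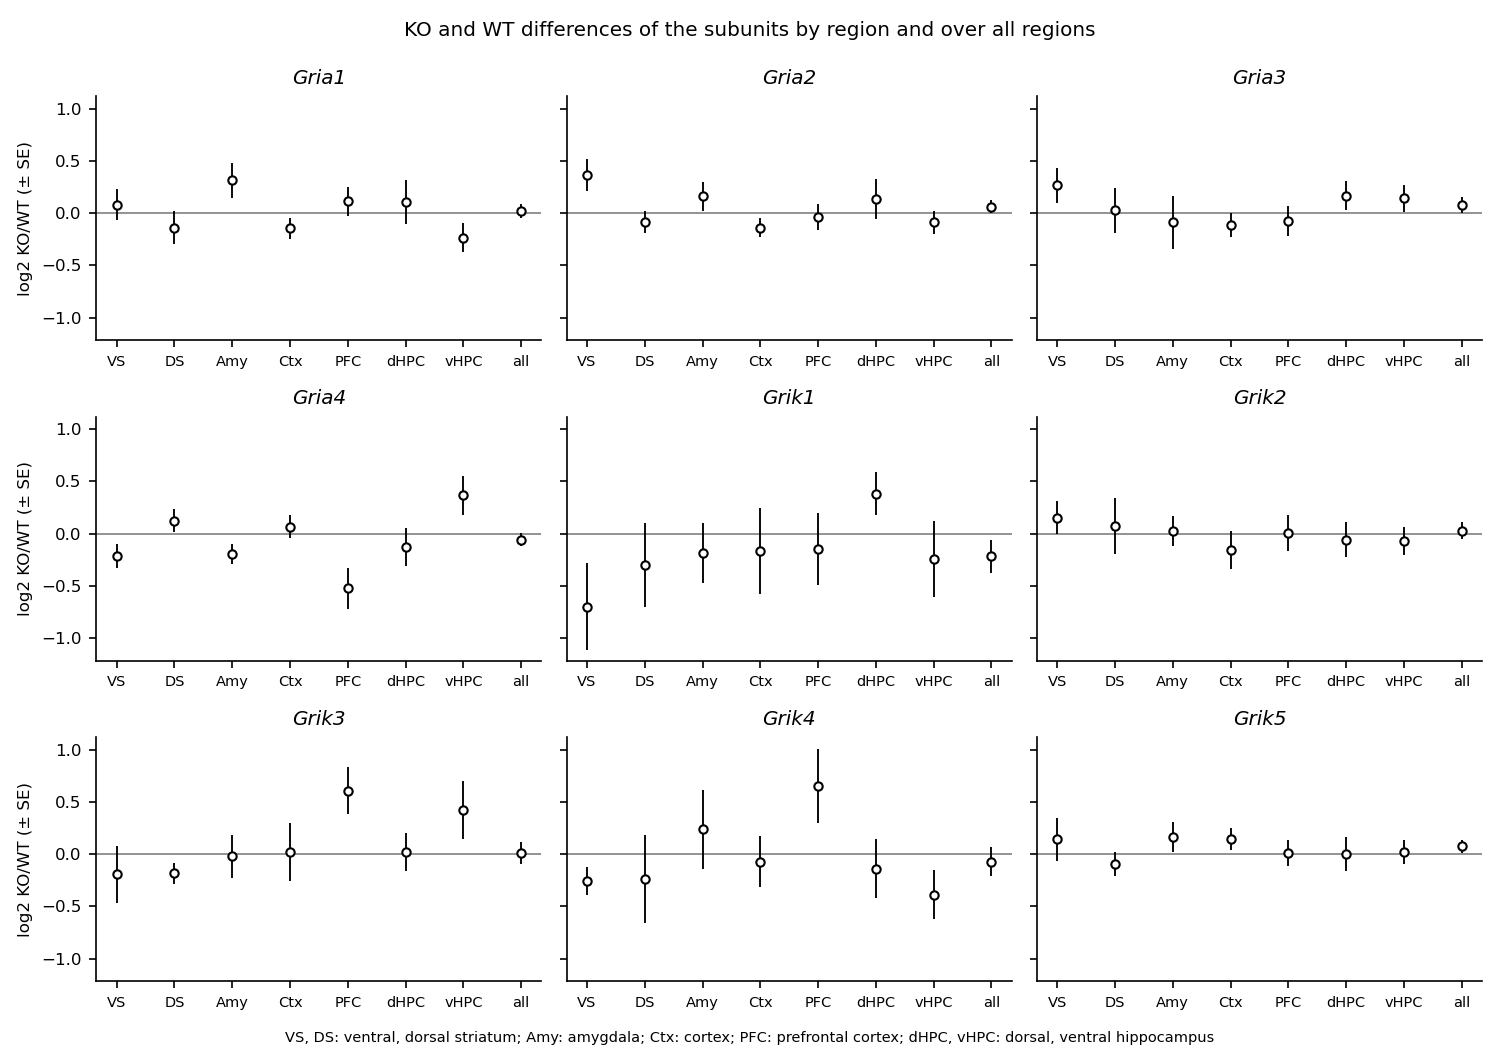
Each panel is 1 member, the x axis lists the 7 regions and the fit over all regions, and the y axis is the log2 fold change of KO against WT ± SE; no value passed the threshold. The values over all regions lie between −0.22 for Grik1 and 0.08 for Gria3, and the single regions spread more widely, from −0.70 for Grik1 in the ventral striatum to 0.66 for Grik4 in the prefrontal cortex.

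Shares within a family gave the same count. In 63 two-sided exact permutation tests of genotype within sex, 0 shares were called, and the smallest adjusted p was 0.779. The Gria2 share of the ventral striatum, 28.4% ± 1.6 in KO and 24.4% ± 3.6 in WT libraries, had an unadjusted exact p of 0.0250, and the Gria4 share of the cortex, 15.8% ± 1.2 and 13.9% ± 0.66, one of 0.02. The smallest possible p was 0.00500 in 6 regions and 0.0333 in the prefrontal cortex. None of the genes tested from the 6 accompanying lists was called between KO and WT in any region or over all regions. The low-count filter left out 1 of the 15 AMPA auxiliary subunits in the dorsal striatum, cortex and ventral hippocampus, and 1 of the 7 clustering proteins in the cortex and prefrontal cortex.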

How the data were processed

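RNA was taken with Trizol from 7 dissected regions of 12 mice, and poly(A) libraries were made from 300 ng (NEBNext), per the labels' protocols. The authors deposited raw counts per gene in 2 tables, 1 for each sex. The submitters' processing notes name STAR 2.5.2a, SAMtools 1.1, HTSeq 0.6.1, DESeq2, R 4.0.2 and GRCm38, with no role or order; the strand setting and the gene annotation are not given in the sources used here.

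The tables were joined by gene symbol and each column was assigned to a mouse by its label. Counts were analysed in R 4.3.3 with edgeR 4.0.16 (TMM scaling, filterByExpr with a minimum count of 10 and a minimum total of 15, quasi-likelihood F test), limma 3.58.1 (voom with duplicateCorrelation on mouse, consensus correlation 0.0178) and, as an alternative, DESeq2 1.42.0. The models were tested on simulated data. CPM used column totals, levels per kb used GENCODE M21 exonic length, and shares were counts per exonic kb over their sum within a family. Benjamini-Hochberg adjustment covered all genes tested, 63 KO and WT share tests or 54 region share tests, at 0.05. KO and WT were compared within each region, over all regions and by sex, and 6 pairs of regions were compared. Labels name the mouse of each library, so regions of 1 mouse are paired; the mean correlation of same-mouse deviations was 0.138 between ventral and dorsal striatum (12 mice) and between −0.0388 and 0.0845 in the other 5 pairs.

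All 9 members and Acss2 were named, and from each accompanying list the 2 called genes with the largest change, or all of a list of 3 or fewer. Of the genes most like a member in level, 1 is not reported here. The members and lists were chosen with earlier results of these data known. Alternatives were other scaling, no filter, DESeq2, thinned counts, a mouse block, each sex alone, other lengths for shares and each mouse left out. Leaving out 11 libraries by their region markers, leaving out 1 prefrontal library, and WT libraries alone were added after the data were seen. The floor of 3 counts covers counting error only, and the 95% intervals rest on the spread between libraries. Region markers came from lists of 9 striatal projection neuron, 8 cortical excitatory neuron and 8 hippocampal field genes, the amygdala being judged by the cortical list.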

Additional observations from a re-analysis of the deposited data

Results flagged for a closer look

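A gap test for a single extreme value (Dixon's ratio at the 95% level) was applied to the CPM of each member in the KO and in the WT libraries of each region. It picked out 10 of 126 sets, and chance alone picks about 1 in 20. None of these 10 values was weighed for a cause.

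Among the AMPA subunits, Gria1 in the ventral striatum was 406 CPM in male KO mouse 10, a set-apart library, against 632 to 754 CPM in the other 5 KO libraries. In the dorsal hippocampus Gria1 was 1519 CPM in male KO mouse 2, against 1132 to 1275 CPM. Gria3 in the cortex was 303 CPM in male WT mouse 13, against 206 to 230 CPM, and in the ventral hippocampus it was 284 CPM in female WT mouse 11, against 163 to 202 CPM. Gria4 in the dorsal hippocampus was 103.9 CPM in female WT mouse 23, a set-apart library, against 43.5 to 55.4 CPM.

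Among the kainate subunits, Grik1 was 31.04 CPM in the amygdala of male KO mouse 1, against 11.3 to 17.7 CPM, and 24.3 CPM in the prefrontal cortex of female KO mouse 4, against 11.4 to 12.3 CPM in the other 3 KO libraries. Grik2 was 38.2 CPM in the amygdala of female WT mouse 23, against 69.5 to 80.5 CPM, and 44.4 CPM in the cortex of male KO mouse 1, against 30.6 to 35.1 CPM. Grik3 in the ventral hippocampus was 128 CPM in female WT mouse 11, against 29.8 to 63.5 CPM.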

How the results depend on the processing

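The counts below are of the 9 members called, and in every case where a count moved the cause was not tested unless named. KO and WT calls stayed at 0 under every alternative, apart from 1 call in the prefrontal cortex (Grik3) without a low-count filter and 1 in female libraries alone. Counts thinned to the smallest library, which removes most reads of the deep regions, gave 0 calls between ventral and dorsal striatum (1 with all reads), 0 between dorsal and ventral hippocampus (2), 3 between dorsal hippocampus and dorsal striatum (6), 0 between amygdala and ventral striatum (4) and 3 between ventral hippocampus and cortex (5). Grik2 between dorsal hippocampus and dorsal striatum then changed sign, from −0.33 to 0.0436. Gria4 between dorsal and ventral hippocampus moved from −0.47 to −0.86. Thinning was done in 1 random draw without repeats, and it moved differences as well as calls. A call lost in it therefore cannot be put down to depth alone. In male libraries alone, dorsal and ventral hippocampus gave 1 call and amygdala and ventral striatum 2. In female libraries alone, the 2 striatal regions gave 0, the 2 hippocampal regions 0, and amygdala and ventral striatum 1. WT libraries alone gave 0 calls for the 2 striatal regions, 0 for the 2 hippocampal regions, 2 for prefrontal cortex and cortex, and 1 for amygdala and ventral striatum; they gave 0 share calls in each of the 6 pairs of regions, with a smallest possible p of 0.0313 or more. Without the 11 set-apart libraries the 2 striatal regions gave 2 member calls and 1 share call (3 with them), and prefrontal cortex and cortex 0 share calls (4).

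With mouse as a replicate block, the pairing of regions within mice added 1 call, Gria2 between prefrontal cortex and cortex at 0.33, and changed no other. Leaving out each mouse in turn gave 0 to 0 calls for KO and WT, sex and their interaction. For members it gave 1 to 2 calls between the 2 striatal regions (2 without mouse 23), 2 to 2 between the 2 hippocampal regions, 3 to 5 for prefrontal cortex, 5 to 7 for dorsal hippocampus and dorsal striatum, 3 to 4 for the amygdala and 5 to 5 for the ventral hippocampus and cortex. For shares it gave 1 to 5, 2 to 4, 0 to 4, 7 to 8, 4 to 4 and 7 to 7 in the same order. Leaving out mouse 2, 3, 4, 11, 12 or 13 left 1 striatal share call, and leaving out mouse 24 gave 5. The other settings, including DESeq2 and other lengths for shares, kept the count of calls within 1.5 times. Of 977 alternative values of the 51 single results called, 819 kept direction and call, 157 lost the call and 1 changed sign. Depth limits Grik1 and Grik4 most, with 2 and 8 counts in their lowest cortical libraries.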
